A study of Mus musculus with 2 samples.

Results

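The abundant 18 to 19 nt tags outside the miRNA hairpins were 559 distinct sequences of 1695245 in both libraries together. They were chosen by their measured read counts: a length of 18 or 19 nt, at least 1000 reads summed over both libraries, and no perfect sense match to a miRNA hairpin of GENCODE M21. Of 580 tags that met the length and the read count, 21 matched a hairpin and were left out. The remaining 559 comprised 212 tags of 18 nt and 347 of 19 nt. The least abundant of them had 1004 reads (419 in DMSO and 585 in PD03), and the most abundant tag below the threshold had 998 (565 in DMSO and 433 in PD03). The rule used the sum of both libraries and not their ratio.

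J1 mouse embryonic stem cells (mESCs) kept with 1000 U/ml LIF, the cytokine that holds them undifferentiated, were given either 1 μM PD0325901, an inhibitor of the kinase MEK, or its solvent DMSO for 24 h. Small RNA was purified from a gel at 18 to 30 nt and sequenced, to find RNAs that depend on MEK signalling. Each treatment had 1 library, made of RNA pooled from 3 experiments, so there was no replicate and no difference between treatments was tested. J1 is a single line, kept here on gelatin, and both groups shared the same medium.

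Short reads of this size come from several RNAs besides miRNA. Ribosomal RNA, the core of the ribosome, is by far the most abundant cellular RNA, and its breakdown leaves pieces of many lengths. Transfer RNAs can be cut in the anticodon loop into a 5′ and a 3′ piece or elsewhere into shorter fragments, and a mature tRNA ends in CCA, which is added after transcription. The T-loop of most tRNAs holds the letters GTTCNA, and the A of that motif often carries a methyl group that reverse transcriptases are known to misread or to stop at. The D-arm, near the 5′ end of a tRNA, commonly holds letters such as GTAGAGCA or GTGGTTAG.

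The DMSO library held 18870345 clean reads and the PD03 library 20944808, and values are given as RPM (reads of a tag per 1000000 clean reads of its library) or as their ratio, PD03 over DMSO. The interval after a ratio is the exact 95% Clopper-Pearson interval. It covers counting error only. Reads amplified by PCR without molecular identifiers are not independent molecules, so the interval can be too narrow even for that. The insert sizes differed between the libraries: tags of 28 to 32 nt made up 7.11% of the DMSO reads and 17% of the PD03 reads, and tags of 20 to 24 nt made up 63% and 52%. The part of this size difference in the ratios below was not tested. The hairpins Mir290a to Mir295, which mark mESCs, held between 36630 and 231910 reads each in DMSO and between 37607 and 215970 in PD03, whereas those of Mir302a to Mir302d and Mir367 held at most 197 and 370. Of 6 hairpins of differentiated cells, Mirlet7a-1 had 34159 and 35239 reads, and the other 5 had at most 4858 and 9963.

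The following tags formed the largest group of members that differed from each other by single letters. Capitals mark the letters that varied, at positions 4 to 6 from the 5′ end, and each form is named by these letters.
AAA form: ttcAAAtcacgtcggggtc
AAG form: ttcAAGtcacgtcggggtc
ACA form: ttcACAtcacgtcggggtc
AGA form: ttcAGAtcacgtcggggtc
AGG form: ttcAGGtcacgtcggggtc
ATA form: ttcATAtcacgtcggggtc
ATG form: ttcATGtcacgtcggggtc
GAA form: ttcGAAtcacgtcggggtc
GTA form: ttcGTAtcacgtcggggtc

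The 5 members with the highest and the 5 with the lowest ratio were the following, in order of the ratio, from the highest to the lowest. These and the other tags below are named by their first letters and their length.
TTCAT-18: ttcatatctcggtgggac
AGCAG-18: agcaggtagagcaaatga
AGGAT-18: aggatagaaatagagcag
CAGTC-18: cagtcggtagagcatcag
CAATG-18: caatggtagaacaacggg
GTGTA-18: gtgtagaataagtgggag
CCATT-18: ccattggagggcaagtct
AGGGT-19: agggttcgattccggagag
AGGTG-19: aggtgtagaataagtggga
AGGTG-18: aggtgtagaataagtggg

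Together the 559 tags held 1275725 reads in DMSO, or 6.76% of the library (95% Wilson interval 6.749 to 6.772%), and 1399220 in PD03, or 6.68% (6.67 to 6.691%). They were 61.9% and 62.9% of all reads of 18 and 19 nt. Their abundance was uneven. The most abundant tag had 120914 reads, the median tag 2263, and 246 tags had fewer than 2000. The 10 most abundant tags held 18% of all member reads and the top 50 held 43.9%.

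Between PD03 and DMSO, 127 of the 559 members (22.7%) were 1.5-fold or more higher in PD03 and 124 (22.2%) were 1.5-fold or more lower. Over all 3854 tags of any length with at least 1000 reads, the members included, the shares were 14.4% higher and 20.8% lower. The members thus passed the fold more often upwards than tags in general, and about as often downwards. The median log2 ratio was −0.04 for the members and −0.16 for all tags, and the quartiles of the members were −0.52 and 0.52. The 95% counting interval left out 1 for 497 of the 559, and the widest interval spanned a factor of 1.42. These intervals, which do not allow for PCR copies, were narrow beside the spread between tags. The counts leaned upwards under other scalings. With the reads of 20 to 24 nt as denominator, 190 members were higher (34%) and 75 lower (13.4%), against 22.7% and 9.91% of all tags. With DESeq2 size factors they were 159 and 87, against 18.5% and 13.4%. The other scalings raised each log2 ratio by 0.04 to 0.28, which left every member past 1.5-fold on its side of 1 but moved ratios just under 1, those of the large classes below among them, to above 1.

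The 2 lengths differed. Of the 18 nt members 71 (33.5%) were higher and 40 (18.9%) lower, and of the 19 nt members 56 (16.1%) were higher and 84 (24.2%) lower. The median log2 ratio was 0.12 at 18 nt and −0.15 at 19 nt. All abundant tags of 20 nt, by comparison, had a median of −0.48, with 4.57% higher and 40.1% lower, and those of 29 nt had 1.08, with 76.5% higher. Over the whole libraries the share of 18 nt reads was 3.81% in DMSO and 4.1% in PD03, and that of 19 nt reads 7.11% and 6.52%. Tags past 1.5-fold in either direction were 54.3% of all abundant tags at 18 nt, 41.8% at 19 nt and 18.2% at 25 nt.

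By transcript class, most members had no perfect match in the annotation used here, and most of those with a match lay in rRNA-like sequence. The reference held only 13 of 430 nuclear tRNA genes and no separate gene for the long large-subunit rRNA, so an unmatched tag is not shown to be of another origin. Matches were sought in the sense strand, except for tRNA genes, which were read on both strands. They were found for 98 tags in protein-coding or long noncoding genes, 5 in tRNA genes, 3 in snRNA, 2 in snoRNA and 2 in 5S rRNA, and none in mitochondrial RNA. The other 449 tags, with 74.8% of the member reads, matched nothing, and 6 of these ended in CCA. The ratio of summed RPM was 0.984 (0.982 to 0.987) for the 443 unmatched tags without a CCA end, which had 949057 reads in DMSO and 1037043 in PD03. It was 0.993 (0.989 to 0.998) for the 98 tags in protein-coding or long noncoding genes, with 309200 and 340944 reads. The sums of both large classes were near 1, although single tags in each ranged widely, from 0.215 to 5.87 and from 0.289 to 4.14.

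Most of the 98 tags lay in 1 gene. Gm42418, a long noncoding gene at chr17:39846958-39848788 on the plus strand of GRCm38 that is known to hold 18S rRNA sequence, matched 68 of them. GENCODE places the rRNA gene CT010467.1 on the opposite strand of the same locus, and 105 members matched the strand opposite its rRNA transcript at chr17:39846353-39848201. Of these 105, 67 lay in Gm42418 and 38 were otherwise unmatched. This set, formed after the data were seen, had 308213 reads in DMSO and 331583 in PD03, a ratio of 0.969 (0.965 to 0.974) and 23.9% of the member reads. Among its 105 tags 19 were 1.5-fold or more higher in PD03 and 25 were 1.5-fold or more lower. Over all 3854 abundant tags the shares were 14.4% and 20.8%.

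The 105 tags were not spread evenly along the rRNA. They fell into 22 separate runs that covered 619 of its 1849 bases, or 33.5%. The run with most members, 17, lay at chr17:39847025-39847065 and had 66831 reads in DMSO and 67682 in PD03 (0.912, 0.903 to 0.922). Its tags differed among themselves from a log2 ratio of −1.33 to 1.74. The run at chr17:39846951-39846970 had the second-lowest ratio, with 6918 reads in DMSO and 3931 in PD03 (0.512, 0.492 to 0.532), and it includes CCATT-18. In 6 of the 22 runs, 1 member or more was at least 1.5-fold higher in PD03 while another was at least 1.5-fold lower.

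CGTAG-19 (cgtAGTTGGATCTTGGGAG, with the last 16 bases in capitals, as in the annotated tags that follow), at chr17:39847035-39847053 in Gm42418, was an abundant tag of the run with most members. It had 18802 reads in DMSO and 13785 in PD03 and a ratio of 0.661 (0.646 to 0.675).

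Another 27 members matched Lars2, Gm15564 or AA474408, genes known to hold segments of 28S rRNA sequence, and several of them matched more than 1 of the 3. Lars2 encodes the mitochondrial leucyl-tRNA synthetase, and 25 members matched it. Each tag was placed in a single gene, and all 12 tags placed in Lars2 lay in untranslated exon sequence. The position in Lars2 of its other matches was not checked. AGTAC-18 (agTACGAGAGGAACCGCA), at chr9:123462169-123462186 in the 3′ UTR of Lars2, was the most abundant of the 27, with 13271 reads in DMSO and 16067 in PD03 (1.09, 1.07 to 1.12). As a group the 27 had 56919 and 65882 reads and a ratio of 1.04 (1.03 to 1.05). Single tags again ranged from 0.289 to 4.14. Of the 27, 8 were at least 1.5-fold higher and 6 at least 1.5-fold lower, against 14.4% and 20.8% of all 3854 abundant tags.

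The annotated small RNA classes were few. The pair of 5S rRNA tags, ggaATACCGGGTGCTGTAG and its form without the last G, matched 56 gene copies, 1 of them at chr8:123606616-123606634 on the minus strand. They had 1721 and 866 reads in DMSO and 2328 and 1043 in PD03, ratios of 1.22 (1.14 to 1.3) and 1.09 (0.991 to 1.19). The interval of the shorter one includes 1. The 3 snRNA tags came from U2, the spliceosomal RNA that pairs with the branch site, and matched Rnu2-10 and 6 further genes. Of these, tggATTTTTGGAAGTAGGA had 1233 and 1554 reads (1.14, 1.05 to 1.22). The overlapping aaaTGGATTTTTGGAAGTA had 1376 and 785 (0.514, 0.47 to 0.561), and its form without the first a had 1168 and 644 (0.497, 0.45 to 0.547). Tags that ended 3 bases apart on the same snRNA therefore differed more than 2-fold in ratio. Both snoRNA tags were the 5′ end of Snord14c and Snord14d, box C/D RNAs in introns of Hspa8. The 18 nt form tcGCTGTGATGATGGATT, at chr9:40803583-40803600, had 1187 and 1795 reads (1.36, 1.27 to 1.47). The 19 nt form had 946 and 1028 (0.979, 0.895 to 1.07).

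Of the 5 tags in tRNA genes, 4 matched n-TVcac9, a valine tRNA gene at chr13:23446142-23446214, and 1 matched n-TAagc16, an alanine tRNA gene at chr13:21222586-21222657. The tag cacGCGAAAGGTCCCCGGT had 685 reads in DMSO and 1181 in PD03 (1.55, 1.41 to 1.71), and acaCGCGAAAGGTCCCCGG had 449 and 712 (1.43, 1.27 to 1.61). These are internal pieces. From the 3′ end of the same tRNA, aaCCGGGCGGAAACACCA had 468 and 700 reads (1.35, 1.2 to 1.52). The 5 tags together had a ratio of 1.27 (1.21 to 1.33), with 2655 and 3735 reads.

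Some members shared a 3′ end. The members had 474 different ends of 16 bases, and 83 of these ends were held by more than 1 member, 168 members in all. No end was held by more than 4. Among the 83 the ratios of the members that shared an end were a median of 1.52-fold apart.

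Few members ended like a complete tRNA. Of the 559, 9 ended in CCA (1.61%), against 2.8% of all 3854 tags with at least 1000 reads. None of the unmatched tags had both CCA and T-loop letters, but this could not show their origin, since members may be too short for both. The ATA form continued to its CCA, ttcatatcacgtcggggtcaCCA, took 23 nt from TTC to CCA, and members had at most 19 nt. The 9 members that ended in CCA are shown with the CCA in capitals, since this end is what a tRNA 3′ fragment would carry.
TCCCC-18: tccccggcatctccaCCA
TCCGG-19: tccggagcgggaggaaCCA
CGGAA-19: cggaagcgtgctgggcCCA
ATCAC-18: atcacgtcggggtcaCCA
CGGCG-19: cggcgatgatgacactCCA
AACCG-18: aaccgggcggaaacaCCA
GGCAG-19: ggcagcttccgggaaaCCA
alanine TCCCC-18: tccccggcacctccaCCA
CAGGC-19: caggcgcgcaaattacCCA

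GGCAG-19 and CAGGC-19 are tags of the rRNA locus on chr17, and AACCG-18 and alanine TCCCC-18 are the 3′ ends of n-TVcac9 and n-TAagc16. TCCCC-18, the most abundant of the 9, had 1881 reads in DMSO and 2150 in PD03 (1.03, 0.968 to 1.1). TCCGG-19 had 1532 and 1498 (0.881, 0.82 to 0.947) and CGGAA-19 had 1124 and 1665 (1.33, 1.24 to 1.44). The 9 together had 7834 and 10160 reads and a ratio of 1.17 (1.13 to 1.2). CCA-ending tags were a larger share at 22 nt, where they held 4.84% of the reads in DMSO and 5.61% in PD03, than at 18 nt (1.47% and 1.43%) or 19 nt (0.806% and 1.17%).

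A tRNA-like end without its CCA was more abundant. The 9 forms ttcNNNtcacgtcggggtc, where N marks the varying letters, had 65020 reads in DMSO and 66008 in PD03 together (0.915, 0.905 to 0.925). Position 5 held G in 45.2% of the DMSO reads and 45.9% of the PD03 reads, T in 36.3% and 34.6%, A in 16.6% and 17.7%, and C in 1.93% and 1.73%. The letter mix was thus nearly the same in both libraries. Position 4 was A in 96.5% and 96.4%, and position 6 was A in 61.3% and 58.5% and G otherwise. The most abundant forms were AGG with 18146 and 19718 reads (0.979, 0.959 to 0.999), ATA with 16859 and 15757 (0.842, 0.824 to 0.861) and AGA with 11245 and 10597 (0.849, 0.827 to 0.872).

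The same sequence continued to a full CCA in longer tags. Over the 1175 tags that hold tcacgtcggggtc, 34.3% of the DMSO reads and 40.2% of the PD03 reads ended there, 45.3% and 39.9% ended 1 base later with A, and 18.4% in both ended in ACCA. The ratio was 0.912 (0.902 to 0.922) for the end without extra bases, 0.685 (0.679 to 0.692) for the end with A and 0.778 (0.766 to 0.79) for the CCA end. Tags 1 base shorter at the 3′ end were higher in PD03: the 7 members of 18 nt that lack the last c had 10915 and 17141 reads and a ratio of 1.41 (1.38 to 1.45), and each of the 7 was above 1. The ratio thus differed more between these 3′ ends than between the varying letters, which gave log2 ratios from −0.29 to 0.08 at 19 nt and from 0.35 to 0.59 at 18 nt.

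Groups of members that differ by single letters numbered 19 in all and held 52 members, 15 of the groups being pairs. Within a group the log2 ratios differed by a median of 0.18, and no group had members 1.5-fold or more away from 1 on both sides. The group ttcaNatcccggacgagcc, which again varied at position 5, had 4297 reads in DMSO and 7400 in PD03 (1.55, 1.49 to 1.61), with T in 51.2% and 50.9%, G in 30.9% and 28.8% and A in 17.9% and 20.2%. The pair actgcgNatcagaagattg had 9992 and 4029 reads (0.363, 0.35 to 0.377), and the pair agcggtctaaggcNctgga had 3724 and 9343 (2.26, 2.18 to 2.35). Each of these 3 groups lay on 1 side of 1 with all its forms.

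Tags that differed by 1 end base showed the same order. In 123 cases an 18 nt member was a 19 nt member without its last base, and the shorter tag had the higher ratio in 76 of them. Over all 123, its ratio was a median of 1.26-fold that of the longer tag. In 83 cases it lacked the first base, and the shorter tag had the higher ratio in 65, with a median of 1.36-fold over all 83. The spread was wide, since 63 of the 123 pairs and 43 of the 83 were 1.5-fold or more apart. These pairs share their source and are not replicates: the 559 members formed 236 groups of tags that overlap by at least 14 bases, 111 of them with a single tag and the largest with 17.

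In 4 pairs, a single end base separated a tag at least 1.5-fold higher in PD03 from one at least 1.5-fold lower. They are shown as the 19 nt form, with the base that the 18 nt form lacks in capitals.
TCATT-19: tcattgtgaagcagaattC
GACTG-19: gactggggcggtacacctG
GACTT-19: Gacttagaactggtgcgga
TTCAT-19: Ttcatatcccggacgagcc

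TCATT-19, at chr9:123462035-123462053 in the 3′ UTR of Lars2, had 577 reads in DMSO and 1092 in PD03 (1.71, 1.54 to 1.89). Its 18 nt form had 1543 and 552 (0.322, 0.292 to 0.355), the widest gap of any pair. GACTG-19 had 1212 and 2487 reads (1.85, 1.73 to 1.98), and without its last g 887 and 435 (0.442, 0.393 to 0.496). For both, the longer form was higher and the shorter one lower in PD03. GACTT-19 went the other way, with 1357 and 886 reads (0.588, 0.54 to 0.641), against 10747 and 20264 without its first g (1.7, 1.66 to 1.74). TTCAT-19, the T form of the second letter group, had 2199 and 3768 reads (1.54, 1.46 to 1.63) and its shorter form 726 and 439 (0.545, 0.483 to 0.614).

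The highest ratios belonged to 18 nt tags. TTCAT-18 had 150 reads in DMSO (7.95 RPM) and 978 in PD03 (46.7 RPM), a ratio of 5.87 (4.94 to 7.02), and it starts with the T-loop letters TTC. AGCAG-18 had 168 and 869 reads (4.66, 3.95 to 5.53), AGGAT-18 had 164 and 844 (4.64, 3.92 to 5.51), and CAGTC-18 had 490 and 2418 (4.45, 4.03 to 4.91). CAATG-18, the most abundant of the 5, had 1187 and 5670 (4.3, 4.04 to 4.59). TTCAT-18, AGCAG-18 and AGGAT-18, with 1128, 1037 and 1008 reads in all, passed the rule mainly through their PD03 reads. None of the 5 matched a transcript used here. Tags of 20 to 24 nt with the same first 18 bases had lower ratios: those of CAATG-18 had 248 and 245 reads (0.89, 0.743 to 1.07), and those of AGCAG-18 had 211 and 304 (1.3, 1.09 to 1.55). At 28 nt or more those of AGCAG-18 had 88 and 241 (2.47, 1.93 to 3.19). The most abundant longer tags that hold CAATG-18 and CAGTC-18 had 30 nt and the same 3′ end. They had 127 and 8553 reads (60.7) and 152 and 512 (3.03). For TTCAT-18, AGCAG-18 and AGGAT-18 the most abundant longer tags had ratios of 1.03, 1.23 and 1.53.

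AGCAG-18 and CAGTC-18 share GTAGAGCA, the D-arm letters. This motif was searched for after the ratios were seen, in the sense strand only, and 11 members held it (1.97%), against 0.856% of all 3854 abundant tags. It was not particular to the members. Of the 397 abundant tags of 28 nt or more, 10 held it (2.52%), with a ratio of 2.5 (2.44 to 2.56). Of these 10, 8 were at least 1.5-fold higher, against 68.5% of all 397. At 20 to 27 nt, 12 abundant tags held it (0.417%), with a ratio of 1.01 (0.988 to 1.03). The 5 members of 18 nt had 9096 reads in DMSO and 19599 in PD03 (1.94, 1.89 to 1.99). Of these 5, 4 were at least 1.5-fold higher, against 33.5% of all 18 nt members. AGCAG-18 and CAGTC-18, picked for their ratios, are among the 4, so this count and the ratio were partly fixed by that choice. The 6 of 19 nt had 6767 and 8556 (1.14, 1.1 to 1.18), and none passed 1.5-fold, where 16.1% of all 19 nt members were higher. An abundant pair shows the step, with the motif in capitals.
AGTAG-18: agtagGTAGAGCAacggt
AGTAG-19: agtagGTAGAGCAacggtt

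AGTAG-18 had 4002 and 10140 reads (2.28, 2.2 to 2.37), and AGTAG-19, longer by the final t, had 1552 and 2192 (1.27, 1.19 to 1.36).

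The lowest ratios came from few RNAs. AGGTG-18 had 4810 reads in DMSO (255 RPM) and 1149 in PD03 (54.9 RPM), a ratio of 0.215 (0.202 to 0.23). AGGTG-19 had 14888 and 4095 (0.248, 0.239 to 0.257), and GTGTA-18, an overlapping tag that starts 2 bases later, had 955 and 296 (0.279, 0.244 to 0.318). These 3 tags overlap and share their source, and GTGTA-18, with 1251 reads in all, passed the rule mainly through its DMSO reads. The other 2, AGGGT-19 with 1698 and 482 reads (0.256, 0.231 to 0.283) and CCATT-18 with 3389 and 991 (0.263, 0.245 to 0.283), are tags of the rRNA locus at chr17:39846777-39846795 and chr17:39846951-39846968.

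The RNA of AGGTG-18 was one of the most abundant in the libraries at greater lengths. Its 20, 24 and 30 nt forms are shown with the bases beyond the 18 nt member in capitals.
AGGTG-20: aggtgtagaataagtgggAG
AGGTG-24: aggtgtagaataagtgggAGGCCC
AGGTG-30: aggtgtagaataagtgggAGGCCCCCGGCG

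Tags that begin with these 18 bases totalled 1454150 reads in DMSO and 1621006 in PD03 over all lengths, a ratio of 1 at 3 significant digits. At 20 nt they had 30179 and 8319 reads (0.248, 0.242 to 0.254), at 24 nt 781511 and 820206, with a ratio of 0.946, and at 30 nt 33305 and 133006, with a ratio of 3.6. At 31 nt they had 153 and 5386 reads, with a ratio of 31.7 (27 to 37.5). Tags with the same start thus ran from a ratio of 0.215 at 18 nt to 31.7 at 31 nt, with a sum near 1. The tags of 18 and 19 nt were 1.35% of these reads in DMSO and 0.324% in PD03, and those of 28 nt or more were 6.32% and 15.3%.

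Of the members, 93 were the first 18 or 19 bases of an abundant tag of 28 nt or more. Among these 93, 9 were 1.5-fold or more higher in PD03 and 36 lower, with a median log2 ratio of −0.37. The shares were 14.4% higher and 20.8% lower over all 3854 abundant tags, and 22.7% and 22.2% over all members. The 28 nt or longer tags that they open, 64 distinct sequences, had a median of 0.83 counted once for each member, and 60 of the 93 (64.5%) were 1.5-fold or more higher and 1 lower. Of all 397 abundant tags of 28 nt or more, 68.5% were higher and 0.756% lower, so the share of higher tags was near that of long tags in general. The member had the lower ratio in 82 of the 93 cases. Tags of 28 to 32 nt were more frequent in the PD03 library as a whole, as given above.

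The D-arm letters GTGGTTAG were counted together with the similar string GTGGTTCA, a choice also made after the ratios were seen. Either was held by 10 members, 3 of which open an abundant tag of 28 nt or more. The 10 had 21164 reads in DMSO and 13534 in PD03 (0.576, 0.564 to 0.589). Of the 10, 7 were at least 1.5-fold lower and 1 was at least 1.5-fold higher, against 20.8% and 14.4% of all 3854 abundant tags. Several of the 10 overlap each other, so they are not separate cases. In the 25 abundant tags of 28 nt or more with these letters, 122243 and 521946 reads, the ratio was 3.85 (3.82 to 3.87), and all 25 were at least 1.5-fold higher, against 68.5% of all 397 abundant tags of that length. The members described next are shown with the letters in capitals.
TCCCT-19: tccctggtctaGTGGTTAG
GGTGG-18: ggtggtctaGTGGTTAGg
GCATT-19: gcattgGTGGTTCAgtggt
TAGTG-19: taGTGGTTAGgattcggcg
AGTGG-18: aGTGGTTAGgattcggcg
CTAGT-18: ctaGTGGTTAGgattcgg

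TCCCT-19 had 4559 reads in DMSO and 2131 in PD03, a ratio of 0.421. GGTGG-18 had 4334 and 1903, a ratio of 0.396. GCATT-19 had 800 and 404, a ratio of 0.455. TAGTG-19, AGTGG-18 and CTAGT-18 overlap each other and had ratios on both sides of 1. TAGTG-19, the most abundant of the 10, had 4992 and 4056 reads (0.732), AGTGG-18 had 731 and 1209 (1.49), and CTAGT-18 had 274 and 908 (2.99). CTAGT-18 passed the rule mainly through its PD03 reads.

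Counted as distinct tags, the members ended in G in 39.2% of cases and in T in 19.5%. The tags of 18 or 19 nt with fewer than 1000 reads ended in G in 29.6% and in T in 30.1%. Counted by reads the gap was smaller, with G at 36.8% against 32.9% and T at 19.8% against 24.6%. The ratio varied little with the first base, with median log2 ratios from −0.08 to −0.03. Members with a GC content of 80% or more, 42 tags, had a median of −0.51, and the 52 with under 40% had 0.19.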

How the data were processed

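Small RNA from J1 mESCs given DMSO or PD0325901 was sequenced on an Illumina HiSeq 2000, 1 library per treatment. The deposited files give a sequence, its length and how often it occurred, a raw count that the authors took after removing adapters and low-quality reads and did not normalize; the submitters' notes name the build mm9, but the files hold no alignment. Totals were 18870345 (DMSO) and 20944808 (PD03), so that 3 reads are 0.159 and 0.143 RPM.

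Here tags were matched with Python 3.11.15 to GENCODE M21 transcripts (GRCm38), sense strand, over their whole length. They were also matched to 13 of 430 RefSeq tRNA genes (GRCm38.p6) whose sequence lay in a transcript or promoter window. These tRNA genes were read on both strands, since their strand was not given, with CCA added. Sequences are the deposited tags. A tag took its first class in this order: nuclear rRNA, mitochondrial RNA, tRNA, snoRNA, snRNA, other small RNA, protein coding or long noncoding. Ends were shared when the last 16 bases were identical. Ratios are of RPM, with no pseudocount. Intervals are Clopper-Pearson and Wilson (scipy 1.17.1). A fold of 1.5 was used throughout, and no test was run, since there was 1 library per treatment. The scripts were tested on simulated data. Named members are the 3 most abundant per class, the top member of the 5 largest shared ends and the 5 highest and 5 lowest ratios; others named were chosen after their values were seen. The 5 largest shared ends are not reported here. The members and lists were chosen with earlier results of these data known. Alternative denominators were miRNA hairpin reads, reads of 18 and 19 nt, reads of 20 to 24 nt, TMM (edgeR 4.0.16) and size factors (DESeq2 1.42.0). The last line of each file, a total without a tag, was left out. Genome, 28S rRNA and most tRNA sequences were not used here.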

Additional observations from a re-analysis of the deposited data

How the results depend on the processing

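No paired analysis was possible because each treatment had 1 library. The median log2 ratio of the members, −0.04 per clean read, was 0.15 per miRNA hairpin read, 0.23 per read of 20 to 24 nt, 0.11 with TMM and 0.12 with DESeq2 size factors, and the number at least 1.5-fold lower was 75 per read of 20 to 24 nt. With at least 500 reads there were 976 members, 221 higher and 220 lower, and with at least 5000 there were 127, 26 higher and 25 lower, with 4.37% of the reads. At 2-fold, 63 were higher and 60 lower, and for none of these limits is a share over all tags given beside the counts. Another 3 alternatives kept these counts within 1.5 times: hairpins with a Mir or let-7 name only (563 members), hairpins of GENCODE or RefSeq also after removal of 1 or 2 bases (558 members), and tags joined by their last 16 bases (104 higher, 99 lower). No class sum was 1.5-fold from 1 in the main values. Of 58 alternative values of the class ratios, 43 lay outside the counting interval of the main value. The tRNA class was 1.54 per read of 20 to 24 nt and the snRNA class 0.497 for tags of 18 nt only, and both large classes were above 1 under each other scaling. Counting the strand opposite CT010467.1 as nuclear rRNA, chosen after seeing the data, gave that class a ratio of 0.971 in place of 1.17. For tags of 18 nt only, the protein-coding or long noncoding class had 1.28, and for tags of 19 nt only 0.884. Depth limits little here: each member had at least 150 reads in each library. The main limit is that 1 library per treatment, with different insert sizes, gives no measure of the spread between experiments.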
